A study of Homo sapiens with 12 samples.

Results

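Interferon-induced genes were followed in PANC-1, an established human cell line from pancreatic ductal adenocarcinoma. The set holds 44 gene symbols, and a symbol counted as measured when at least 1 of its probes had a detection p under 0.05 on 3 or more arrays. That left 39 genes, represented by 52 detected probes, among 17369 features tested on the whole array. CMPK2 (a mitochondrial nucleotide kinase), BST2 (tetherin), IFITM1 (a membrane protein that restricts virus entry) and SAMD9L (a paralog of SAMD9) had a probe but did not meet the detection rule, and STAT2 (a subunit of the transcription factor complex ISGF3) was not analysed here. RIGI, the current symbol of DDX58, was accepted for that gene.

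Type I and type III interferons bind receptors at the cell surface and signal through JAK kinases to ISGF3, a complex of STAT proteins and IRF9. ISGF3 binds the interferon-stimulated response element in promoters and raises many genes together, whose products sense, degrade or block foreign RNA and tag proteins with ISG15. Epithelial cells can enter this state when their cytosolic sensors meet double-stranded RNA.

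The study transfected PANC-1 cells for 20 hours with 1 of 4 microRNA oligos and measured total RNA on Illumina BeadChips, 3 biological replicates per group by the submitters' design text. The groups were premir control, premir miR-10b (a precursor that adds the microRNA miR-10b), antimir control, and antimir-10b (an inhibitor of miR-10b), and every group, controls included, was transfected with an oligo. No untransfected cells were analysed here, so the levels have no baseline without transfection. The sources used here state neither the dose and sequence of the oligos nor what the replicate numbers 1 to 3 stand for. PANC-1 is 1 cell line, and none of its values speak for other tumour cells.

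1 array stood apart and is kept in view throughout. Premir miR-10b replicate 2 had 29.5% of probes detected against 39.2% to 41.3% on the other 11 arrays, and its median correlation with them was 0.817, where the lowest correlation among the other 11 was 0.981. The counts and medians of each comparison are therefore given with all 12 arrays and with the 11 arrays that leave it out, and values given for 1 of these sets name it. All 8 ductal or epithelial markers (such as KRT19 and EPCAM) were detected on 3 or more arrays. Of 11 leukocyte markers 6, CD68 and CD14 among them, met the same rule. PTPRC, CD3E, NKG7 and CLEC4C of the leukocyte list, all 4 endothelial markers, 3 of 4 acinar markers and 3 of 6 fibroblast markers were detected on 0 arrays.

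The promoters of 5 members show how matches to the core of the sequence element through which ISGF3 acts vary within the set. The windows span 250 bases before to 50 after an annotated start, from RefSeq on GRCh38.p14, written 5′ to 3′ on the gene's strand, with capitals marking each match to the core of the interferon-stimulated response element, which was searched on either strand as GAAA, any 2 bases and GAAA again. ISG15, IFIT1 and MX1 are shown as genes that varied widely among arrays, IFI44L as one with matches whose signal stayed near the detection limit, and OAS1 as one that varied with no match in its window. The OAS1 window does hold GAAACGAAA, where only a C parts GAAA from GAAA, a closer spacing that the search did not count. ISG15 lies at chr1:1013247-1013546, plus strand, IFIT1 at chr10:89392373-89392672, plus strand, the first of 3 listed MX1 starts at chr21:41420308-41420607, plus strand, IFI44L at chr1:78620198-78620497, plus strand, and OAS1 at chr12:112906712-112907011, plus strand.
ISG15: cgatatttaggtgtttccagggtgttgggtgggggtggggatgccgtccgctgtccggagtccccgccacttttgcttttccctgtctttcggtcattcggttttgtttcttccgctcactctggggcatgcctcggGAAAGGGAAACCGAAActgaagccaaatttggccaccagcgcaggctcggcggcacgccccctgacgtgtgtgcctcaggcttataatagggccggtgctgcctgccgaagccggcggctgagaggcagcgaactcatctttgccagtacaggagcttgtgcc
IFIT1: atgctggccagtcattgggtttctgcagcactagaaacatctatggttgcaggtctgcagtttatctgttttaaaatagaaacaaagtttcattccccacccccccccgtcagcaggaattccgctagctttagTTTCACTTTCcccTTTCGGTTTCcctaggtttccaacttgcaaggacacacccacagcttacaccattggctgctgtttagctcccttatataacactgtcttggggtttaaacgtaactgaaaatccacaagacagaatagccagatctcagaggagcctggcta
MX1: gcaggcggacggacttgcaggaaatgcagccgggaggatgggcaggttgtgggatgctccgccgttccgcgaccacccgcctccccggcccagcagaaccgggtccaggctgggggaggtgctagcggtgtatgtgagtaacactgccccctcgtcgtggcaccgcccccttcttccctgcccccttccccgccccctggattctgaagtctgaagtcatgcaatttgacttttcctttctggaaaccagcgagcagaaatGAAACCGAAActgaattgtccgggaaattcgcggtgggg
IFI44L: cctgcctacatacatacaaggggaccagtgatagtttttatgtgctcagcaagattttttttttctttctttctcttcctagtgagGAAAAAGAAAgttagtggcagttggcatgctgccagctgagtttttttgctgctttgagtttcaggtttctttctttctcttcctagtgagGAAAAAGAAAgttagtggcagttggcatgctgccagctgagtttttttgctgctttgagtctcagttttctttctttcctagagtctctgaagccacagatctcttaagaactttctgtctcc
OAS1: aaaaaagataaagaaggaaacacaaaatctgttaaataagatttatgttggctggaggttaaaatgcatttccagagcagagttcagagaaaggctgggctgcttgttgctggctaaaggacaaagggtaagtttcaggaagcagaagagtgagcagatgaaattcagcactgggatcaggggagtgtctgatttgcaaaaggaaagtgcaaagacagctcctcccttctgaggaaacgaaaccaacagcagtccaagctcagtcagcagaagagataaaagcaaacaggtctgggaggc

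The table held a window for 37 of the 44 genes, 50 windows in all. This core was found in 25 of the 37 (67.6%), against 4.38% of all 27305 genes with a window and 3.57% of all 35116 windows of this length. The gamma-activated site (TTC, any 3 bases, GAA) was found in 12 of the 37 (32.4%), against 9.38% of all genes and 7.66% of all windows. Overlapping matches were counted separately, as in ISG15, where matches began at -113 and -107 relative to the start and share bases. In IFIT1 the matches began at -116 and -103, in IFI44L at -164 and -73, and in MX1 at 12. A match is a description of the letters in the window, and a window without one says nothing of the factor. DDX58, XAF1 and CMPK2, also counted without a match, have windows that hold GAAACGAAA as that of OAS1 does, for CMPK2 on the other strand. That of IFI35, without a match too, holds GAAATGAAA at the same closer spacing. The 44 genes lie on 17 chromosomes and form 12 pairs of direct neighbours among protein-coding genes, among them MX2 and MX1 on chromosome 21, OAS1, OAS3 and OAS2 in a row on chromosome 12, and IFIT2 next to IFIT3 on chromosome 10.

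**Figure D1:**
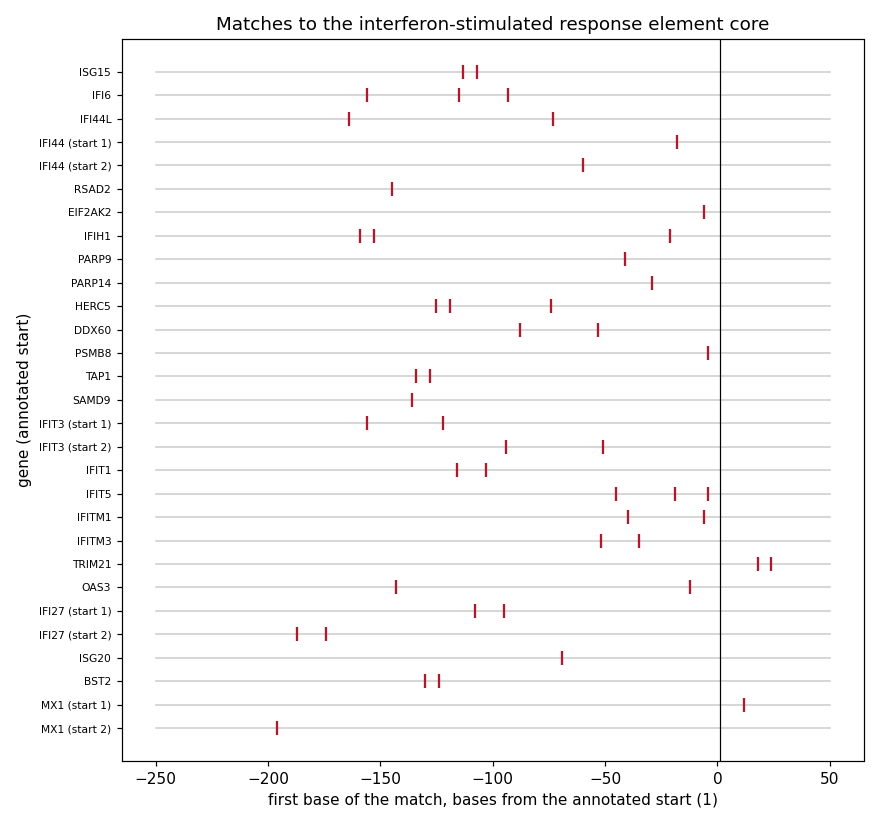
Positions of matches to the response element core in the promoter windows of interferon-induced genes. Each grey line is 1 window with at least 1 match, from 250 bases before to 50 after the annotated start, and each red mark is the first base of a match. Most marks lie before the start, and those of MX1 (first start) and TRIM21 lie after it.

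The main feature of these genes in the data is how far they varied among arrays of the same oligo group. The values below are log2 signals after background correction and quantile normalization, and the arrays of a group are given in the order of replicates 1, 2 and 3. MX1, a dynamin-like GTPase that blocks viral ribonucleoproteins, read 10.7, 11.71 and 8.41 with premir control, 10.95, 12.58 and 9.63 with premir miR-10b, 11.8, 9.06 and 9.53 with antimir control and 11.82, 11.95 and 8.82 with antimir-10b. The 4 replicate 3 arrays and antimir control replicate 2 were all at 9.63 or below, and the other 7 arrays were all at 10.7 or above. Each oligo group therefore held both high and low arrays, and the groups overlapped. In bulk RNA, fewer cells with a high level and a lower level in every cell cannot be told apart. Over the 11 arrays MX1 spanned 11.6-fold, and its SD within oligo groups, 1.56, ranked 1 among the 17369 features.

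OAS2, a synthetase of the oligoadenylates that activate RNase L, read 6.05, 7.62 and 5.2 with premir control, 7.09, 9.06 and 5.23 with premir miR-10b, 7.15, 5.2 and 5.37 with antimir control and 7.34, 7.51 and 5.22 with antimir-10b. It was detected on 8 of the 12 arrays, and the 4 arrays without detection were replicate 3 of premir control, premir miR-10b and antimir-10b and antimir control replicate 2. IFIT1, which binds viral RNA lacking cap methylation, read 10.12, 10.75 and 8.89 with premir control, 11.08, 10.96 and 9.32 with premir miR-10b, 10.21, 9.02 and 9.3 with antimir control and 10.51, 10.67 and 9.01 with antimir-10b. IFIT3, its partner in a complex, read 7.96, 9.15 and 7.32 with premir control, 8.75, 5.57 and 7.94 with premir miR-10b, 9.09, 7.58 and 7.81 with antimir control and 9.1, 9.39 and 7.63 with antimir-10b. On the array that stood apart the brightest IFIT3 probe, whose values these are, was not detected, while another IFIT3 probe was detected there at 6.18 and IFIT1 read 10.96, and over the other 11 both genes were lower on the replicate 3 arrays and antimir control replicate 2 than on each of the remaining 6.

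IFI6, a small membrane protein induced by type I interferon, read 11.05, 11.34 and 9.8 with premir control, 10.82, 12.67 and 10.29 with premir miR-10b, 11.6, 9.91 and 9.96 with antimir control and 11.49, 11.46 and 9.66 with antimir-10b. On the array that stood apart, where this probe was highest, the second IFI6 probe was detected at only 6.87, so the probes disagreed there. ISG15, the ubiquitin-like protein that is attached to other proteins, read 11.67, 12.25 and 10.79 with premir control, 11.52, 12.46 and 11.39 with premir miR-10b, 12.35, 11.12 and 10.93 with antimir control and 12.23, 12.23 and 10.96 with antimir-10b. HERC5, the human ligase that attaches ISG15, read 7.52, 8.46 and 6.89 with premir control, 8.42, 9.92 and 7.04 with premir miR-10b, 7.74, 7.14 and 7.21 with antimir control and 8.11, 8.36 and 6.92 with antimir-10b. By the values given for these 3 genes, the replicate 3 array was the lowest of the group with premir control, premir miR-10b and antimir-10b. With antimir control replicates 2 and 3 were both low.

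IFIH1 (MDA5), a sensor of long double-stranded RNA, read 8.17, 8.15 and 7.01 with premir control, 8.85, 9.2 and 7.54 with premir miR-10b, 8.24, 6.87 and 7.41 with antimir control and 8.16, 8.13 and 7.32 with antimir-10b. OAS1, the smallest of the oligoadenylate synthetases, read 6.33, 7.15 and 6.05 with premir control, 6.73, 8.42 and 6.14 with premir miR-10b, 7.15, 5.99 and 6.14 with antimir control and 7.18, 7.32 and 5.77 with antimir-10b. PARP9, a macrodomain protein that works with the ubiquitin ligase DTX3L, read 8.51, 9.14 and 7.61 with premir control, 8.84, 5.84 and 7.3 with premir miR-10b, 8.43, 7.71 and 7.82 with antimir control and 8.97, 9 and 7.52 with antimir-10b. IFIH1 was lowest on antimir control replicate 2, OAS1 on antimir-10b replicate 3 and PARP9 on the array that stood apart. The other PARP9 probe read its highest value, 8.37, on that array, so the pair of probes disagreed there. Further OAS1 probes read 5.56 and 4.87 there, neither detected, against 8.42 for the brightest.

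The other members varied less, and a few hardly at all. The median within-group SD of the 39 genes was 0.45 over the 11 arrays, against 0.17 for all features, and 37 of the 39 lay above that median of all features. Of the 10 features with the largest SD 5 were members, and of the top 50 there were 16. The ribosomal RNA RNA28SN5 ranked 2, with an SD of 1.55, and further noncoding RNAs such as VTRNA1-1, RNA5S9 and RNY5 were in the top 50. Whether their spread and that of the members are related was not tested. The SD within groups exceeded the whole range of the 4 group means in 25 of the 39 genes. This count was not made over all features, and group means vary less than single arrays, so it does not set these genes apart. MX2, the neighbour and relative of MX1 that restricts retroviruses, ran only from 8.52 to 8.76 over the 11 arrays (SD 0.07 within groups). IFI44L, a relative of IFI44, had an SD of 0.09 and was detected on only 3 arrays, with signals of 5.09 to 5.48 that lie near the detection limit, so this SD is no measure of how its RNA varied. ISG20, an RNA exonuclease, and TRIM21, a cytosolic antibody receptor, had SDs of 0.19 and 0.20. Among the 32 measured genes with a promoter window, the median SD was 0.50 for the 23 with a match to the response element core and 0.42 for the 9 without, and the ranges overlapped (0.09 to 1.56 and 0.25 to 0.67). Those 9 include OAS1, DDX58 and XAF1, whose windows hold GAAACGAAA, and IFI35, whose window holds GAAATGAAA. The search counted neither.

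**Figure D2:**
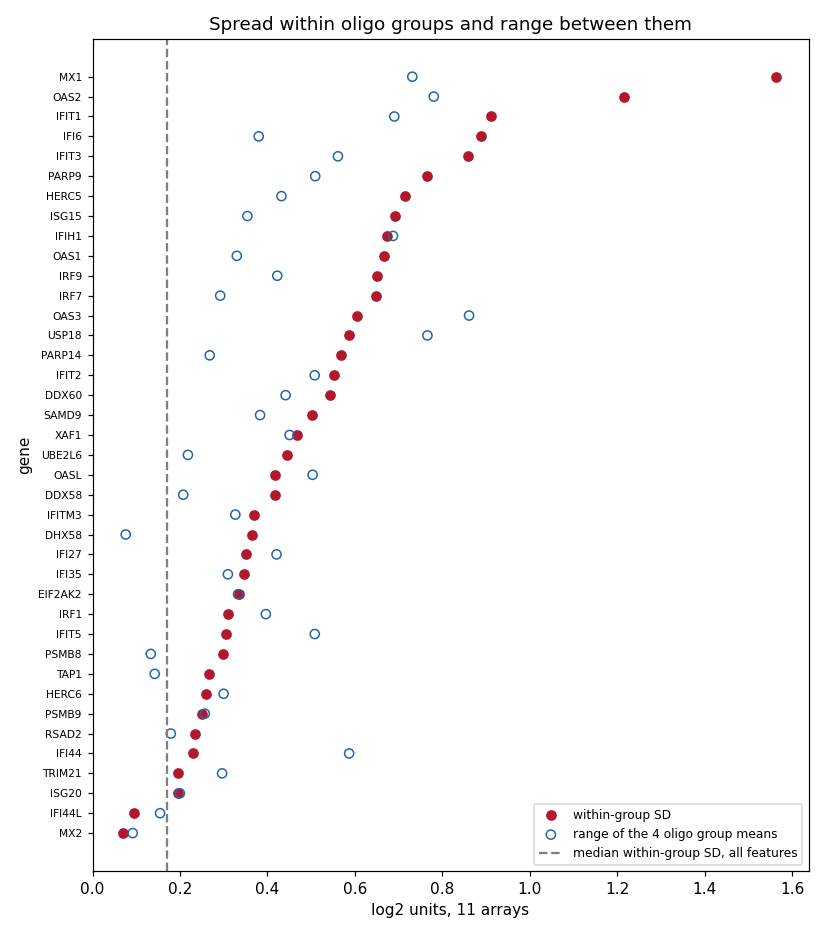
Within-group SD (filled) and the range of the 4 oligo group means (open) of 39 interferon-induced genes, both in log2 units over 11 arrays, with the median SD of all features as a dashed line. MX1 lies at 1.56 and MX2 at 0.07, and in 25 genes the filled point lies to the right of the open one, a count not made over all features.

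By replicate number, the low arrays formed a pattern across the oligo groups. The mean log2 signal of the 39 genes was 7.52, 7.69, 7.64 and 7.56 on the replicate 3 arrays of premir control, premir miR-10b, antimir control and antimir-10b. Antimir control replicate 2 gave 7.59, and the remaining 7 arrays gave 8.04 to 8.48. The highest of these, 8.48, was that of premir miR-10b replicate 2, where probes of IFI6, OAS1 and PARP9 disagreed. The mean over all features was 7.49 to 7.52, which quantile normalization holds nearly equal on every array, so these values are relative to the array as a whole. Of the 39 genes, 30 to 33 were detected on each of these 5 low arrays, 37 to 39 on the other 6 of the 11, and 28 on premir miR-10b replicate 2. DHX58, OASL, RSAD2, SAMD9 and IFI27 met the detection rule without detection on any replicate 3 array, so these counts follow in part from that rule. The share of all probes detected was 39.2% to 40.8% on the replicate 3 arrays and 39.5% to 41.3% on replicates 1 and 2 without premir miR-10b replicate 2.

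**Figure D3:**
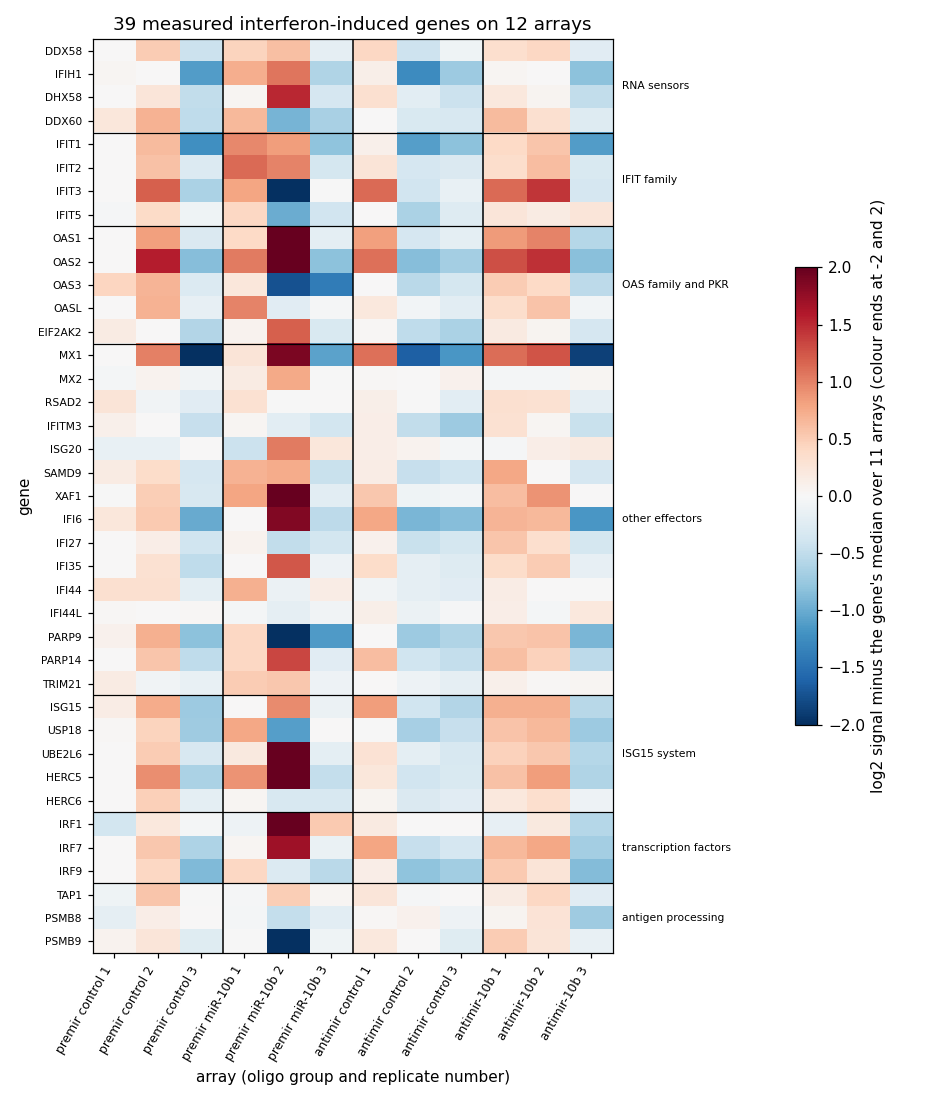
Log2 signal of the 39 measured genes on 12 arrays, each gene shown as its difference from its own median over 11 arrays, with genes grouped by role and arrays by oligo group and replicate number. Blue columns mark the replicate 3 arrays and antimir control replicate 2, and the second premir miR-10b column mixes strong reds and blues.

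Replicate 3 was the lowest array of its group in 34 of 39 genes with premir control, against 30.8% of all features. It was the lowest in 34 of 39 with antimir-10b (33.8% of features), in 23 of 39 with premir miR-10b (27.1%, where replicate 2, the array that stood apart, was the lowest in 13 against 40.5%) and in 16 of 39 with antimir control (32.6%). With antimir control the lowest array was replicate 2 in the remaining 23 genes (29% of features) and replicate 1 in 0 (38.4%). Antimir control replicate 2 lay under each of the other 6 replicate 1 and 2 arrays in 32 of 39 genes, against 12% of features over the same 11 arrays. In 12 genes, against 1.67% of features, replicate 3 was the lowest in every group over 11 arrays, and in 7 (0.967% of features) over 12. All of these are counts over genes of the same arrays, which are not independent of one another.

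The contrast of replicate 3 with the mean of replicates 1 and 2, fitted with the oligo groups as a term, had a median log2 change of -0.62 over the 39 genes with 12 arrays and -0.60 with 11, where the median of all features was -0.01 and 0.01. The change was negative in 36 and 37 of the 39, and the shares of all features with a positive change were 46.8% and 52.5%. By limma with Benjamini-Hochberg adjustment over all features 0 members were called, against 0% of features in either direction, with 12 or with 11 arrays. The same fits gave an unadjusted p under 0.05 for 23 of 39 members with 12 arrays (221 of 17369 features) and for 32 of 39 with 11 (894 of 17369). The lowest adjusted p of a member was 0.998 with 12 arrays and 0.544 with 11. An F test of the 3 replicate numbers also called 0 members, against 0% of features. The contrast was chosen with earlier results of these data known.

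This count changed only when a pair of arrays was left out. With 12 arrays, leaving out any single array kept it at 0. Without both premir miR-10b replicate 2 and antimir control replicate 2, 10 arrays remain, and limma then called 13 members lower on the replicate 3 arrays, against 0.115% of features (20 of 17369), and 0 higher (0.0288% of features). This setting was added after the data had been seen, and it removes a replicate 2 array on which the same genes were low. The 13 were MX1 (log2 change -2.61, SE 0.21, adjusted p 0.00403), OAS2 (-2.05), IFIT1 (-1.56), IFI6 (-1.43), IFIT3 (-1.42), PARP9 (-1.30), HERC5 (-1.22), IRF9 (-1.08), OAS1 (-1.07), IFIH1 (-1.02), USP18 (-0.99), PARP14 (-0.94) and XAF1 (-0.79). IRF9 is the DNA-binding partner in ISGF3, USP18 removes ISG15 from proteins and damps the receptor, PARP14 is an ADP-ribosyltransferase, and XAF1 binds the apoptosis inhibitor XIAP. IRF9 read 10.55, 10.97 and 9.66 with premir control, 10.96, 10.27 and 10.01 with premir miR-10b, 10.68, 9.75 and 9.86 with antimir control and 11.08, 10.8 and 9.68 with antimir-10b. It was at 9.66 to 10.01 on the 4 replicate 3 arrays and antimir control replicate 2, and at 10.27 or above on the other 7.

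USP18 read 6.13, 6.55 and 5.38 with premir control, 6.88, 5 and 6.1 with premir miR-10b, 6.09, 5.44 and 5.64 with antimir control and 6.67, 6.75 and 5.38 with antimir-10b. PARP14 read 7.91, 8.46 and 7.41 with premir control, 8.33, 9.25 and 7.68 with premir miR-10b, 8.53, 7.51 and 7.44 with antimir control and 8.52, 8.37 and 7.39 with antimir-10b. XAF1 read 5.65, 6.16 and 5.34 with premir control, 6.45, 8.6 and 5.45 with premir miR-10b, 6.21, 5.58 and 5.61 with antimir control and 6.27, 6.57 and 5.66 with antimir-10b. In USP18 the array that stood apart had the lowest value and in PARP14 and XAF1 the highest. The F test called 5 members on these 10 arrays, against 0.0345% of features. PARP12 (-0.73) and SP110 (-0.80), both induced by interferon and no members, were among the 20 features too.

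By role, with 11 arrays, all 4 RNA sensors, 4 IFIT genes and 5 genes of the OAS family and PKR group had negative values on the replicate 3 arrays, with medians of -0.64, -0.89 and -0.80 and 0 called. The sensor DHX58 (LGP2) was not detected on any of the 4 replicate 3 arrays and was detected on the other 7. Its level on replicates 1 and 2 was at least 1.29-fold higher, taken to the detection limit. DHX58 and PSMB9, a subunit of the immunoproteasome, were the 2 members whose replicate 3 arrays all lay below the other 7, against 0.213% of features, and with 12 arrays DHX58 alone did so (0.104%). The other PSMB9 probe, which is dim, overlapped, with 5.26 to 5.63 on the replicate 3 arrays and 5.31 to 5.72 on the other 7. EIF2AK2 (PKR), the kinase that halts translation when it binds double-stranded RNA, changed by -0.46 (SE 0.10, adjusted p 0.544). SAMD9, a restriction factor for poxviruses, and RSAD2 (viperin), OASL and IFI27, were not detected on any replicate 3 array, so their fitted changes of -0.60, -0.33, -0.57 and -0.45 rest on signal at background and give bounds of at least 1.22-, 1.10-, 1.22- and 1.09-fold.

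All 5 genes of the ISG15 system had negative values, from -0.99 (HERC5) to -0.32 (HERC6, whose mouse counterpart attaches ISG15), with UBE2L6, the conjugating enzyme for ISG15, at -0.62. Of the transcription factors IRF9 was at -0.89 and IRF7, which amplifies type I interferon genes, at -0.77, while IRF1, a factor downstream of interferon gamma, was at -0.08. The antigen processing genes were nearer to 0, with the peptide transporter TAP1 at -0.24 and the immunoproteasome subunits PSMB8 at -0.33 and PSMB9 at -0.35, and PSMB9 turned to 0.06 with 12 arrays. In the 15 other effectors, MX1 included, 13 were negative. IFITM3, which blocks virus entry from endosomes, changed by -0.50 (SE 0.10, unadjusted p 0.000497, adjusted p 0.544), and read 12.18, 12.08 and 11.62 with premir control, 12.13, 11.87 and 11.72 with premir miR-10b, 12.22, 11.59 and 11.36 with antimir control and 12.4, 12.12 and 11.63 with antimir-10b. None of these values was called.

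Where a gene had a further detected probe, all 13 such probes gave negative replicate 3 values with 12 and with 11 arrays. The second IFI6 probe gave -1.52, the other IRF7 probe -1.10 and a further OAS1 probe -0.88 with 11 arrays. The second IFIT1 probe was detected on only 3 arrays and read 5.03 to 5.58, near the detection limit, so it gives no measure of the change of IFIT1.

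Technical measures and markers of other cell types were set beside this pattern. Over the 4 replicate 3 arrays the raw median signal was 64.5 to 74.1 and the share of probes detected 39.2% to 40.8%, against 66.3 to 76.3 and 39.5% to 41.3% on the other 7. The summed normalized signal of the 11 leukocyte markers was 2202 to 2326 on the replicate 3 arrays and 2127 to 3043 on the other 7, with 6778 on premir miR-10b replicate 2. Most of this sum came from CD68, which read 10.71 to 10.86 on the replicate 3 arrays and 10.74 to 11.34 on the other 7. The summed signal of the 6 fibroblast markers was 475 on premir control replicate 3, 488 on antimir control replicate 3, 443 on antimir-10b replicate 3 and 487 on antimir control replicate 2, and 642 to 740 on the 6 arrays where the interferon-induced genes were high. The fifth array with low interferon-induced genes, premir miR-10b replicate 3, was at 744, and premir miR-10b replicate 2 was at 1197. The fibroblast sum was therefore low on 4 of the 5 arrays on which the interferon-induced genes were low. Most of it came from COL1A1, a collagen gene detected on all 12 arrays, which read 8.07 to 8.33 on those 4 arrays, 8.87 to 9.14 on the 6 high ones and 9.13 on premir miR-10b replicate 3. COL1A1 was -0.57 on the replicate 3 arrays with 12 arrays (adjusted p 0.998) and -0.46 with 11 (adjusted p 0.917), and CDH1, E-cadherin, was -0.50 (adjusted p 0.998) and -0.61 (adjusted p 0.544). Of the 2 measured fibroblast markers, 0 were positive with 12 arrays and 1 with 11. The 8 ductal or epithelial markers, CDH1 included, had a median of 0.01 with 12 arrays (4 positive) and -0.08 with 11 (0 positive). Their summed signal was 8118 to 9849 on the replicate 3 arrays and 9019 to 9943 on the other 7. The part of these markers in the interferon-induced pattern was not tested.

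**Figure D4:**
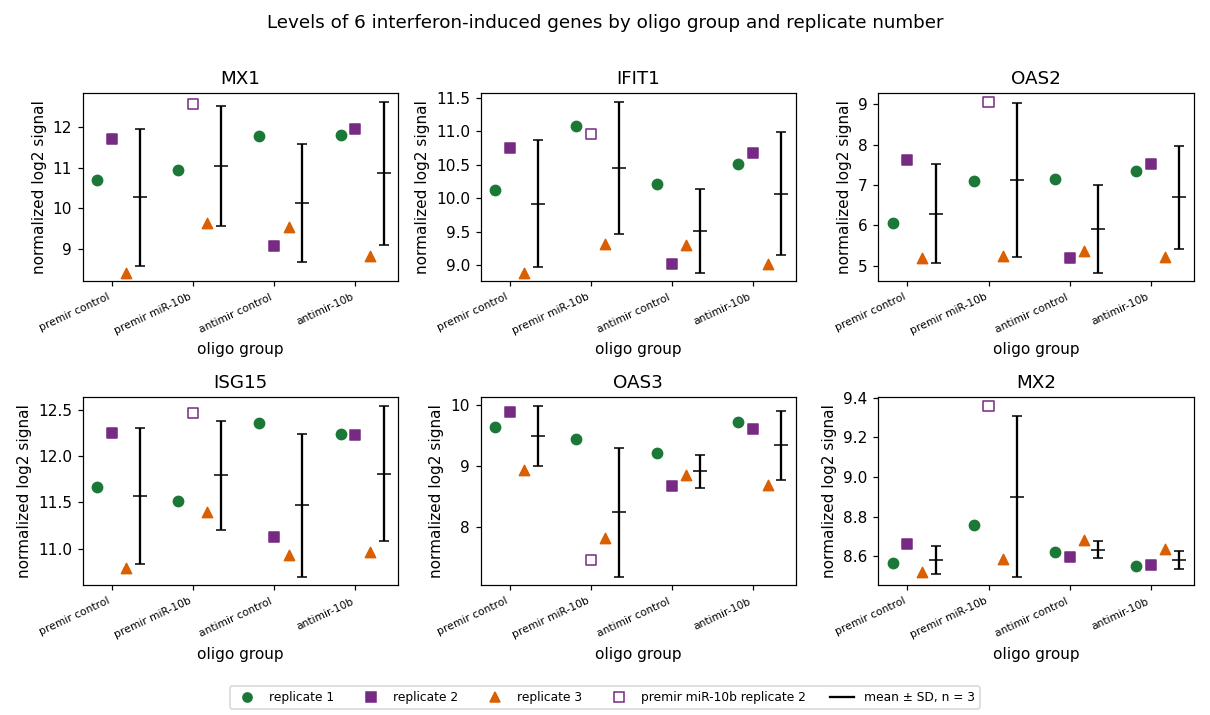
Normalized log2 signal of MX1, IFIT1, OAS2, ISG15, OAS3 and MX2 by oligo group, with 1 point per array, its shape and colour giving the replicate number, and the mean and SD of 3 arrays beside each group. In MX1, IFIT1, OAS2 and ISG15 the replicate 3 triangles and the replicate 2 square of antimir control lie low, MX2 runs only from 8.52 to 8.76 apart from the open square, and each panel has its own vertical axis.

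Inhibition of miR-10b was followed by higher fitted levels of most members, none of which passed the test. Antimir-10b against antimir control had a median log2 change of 0.33 over the 39 genes with 12 or 11 arrays, and the change was positive in 36 of 39, against 50.3% of features. By limma 0 members were called with either set of arrays, against 0% of features in each direction, and an unadjusted p under 0.05 was reached by 0 members with 12 arrays and 1 with 11. All 4 IFIT genes (median 0.53), 5 of 5 in the OAS and PKR group (0.33), 5 of 5 in the ISG15 system (0.34) and 4 of 4 sensors (0.29) were positive. IFIT5, which binds RNA with a bare phosphate end, read 5.98, 6.38 and 5.91 with premir control, 6.42, 5.01 and 5.62 with premir miR-10b, 6, 5.37 and 5.75 with antimir control and 6.24, 6.16 and 6.25 with antimir-10b. Its 3 antimir-10b arrays lay above the 3 antimir control arrays, with a change of 0.51 (95% confidence interval -0.17 to 1.19, adjusted p 1 by limma with 12 arrays, and 0.07 to 0.95, adjusted p 0.999 with 11). The same separation was seen in IFI44 (0.20) and TRIM21 (0.15), making 3 of 39 members against 4.46% of features. IFI44 was near the detection limit and was not detected on antimir control replicate 3. IFI27, a small interferon-induced membrane protein, read 5.35, 5.48 and 4.94 with premir control, 5.41, 4.85 and 4.99 with premir miR-10b, 5.43, 4.9 and 4.99 with antimir control and 5.91, 5.69 and 4.99 with antimir-10b. It gave 0.42 (adjusted p 1 with 12 arrays and 0.999 with 11), and its arrays overlapped between the groups. IFI27 was not detected on antimir control replicates 2 and 3 or antimir-10b replicate 3, so its change rests in part on background signal.

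This median moved with single arrays, from 0.15 to 0.60 with 1 array left out. The part of the low arrays in it was not tested. The antimir control group held 2 low arrays, replicates 2 and 3, and the antimir-10b group held 1, replicate 3. The mean log2 signal of the 39 genes was 8.29, 7.59 and 7.64 with antimir control and 8.43, 8.44 and 7.56 with antimir-10b. Whichever 1 array was left out, antimir control kept the larger share of low arrays. The constant sign of the median is therefore no check of an effect of the inhibitor. Without antimir control replicate 2 the median was 0.20, without antimir control replicate 3 it was 0.19, without antimir-10b replicate 1 it was 0.15 and without antimir-10b replicate 2 it was 0.17. Without antimir-10b replicate 3 it was 0.60 and without antimir control replicate 1 it was 0.57. When limma weighted the arrays by quality it was 0.63 with 12 arrays. For MX1 the change was 0.73 with a 95% confidence interval from -1.80 to 3.26 with 12 arrays and -1.26 to 2.72 with 11, intervals wide enough to hold both a rise and a fall of several fold.

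Added miR-10b gave values on both sides of 0. Premir miR-10b against premir control had a median of 0.27 with 12 arrays (27 of 39 positive, against 54.9% of features) and 0.02 with 11 (20 of 39, against 50.6%). With 12 arrays the sign differed between probes of the same gene. Where the brightest probe was positive, further detected probes were negative for IFI6 (-0.53), OAS1 (-0.27 and -0.50), IRF7 (-0.48) and UBE2L6 (-0.36). Where it was negative, a further probe was positive for PARP9 (0.59), IFIT3 (0.16) and PSMB8 (0.56). With limma's array weights the 12-array median turned to -0.10. By limma 0 members were called, against 0.0461% of features higher and 0.0806% lower with 12 arrays and 0.23% and 0.484% with 11. An unadjusted p under 0.05 was reached by 1 member with 12 arrays and by 0 with 11. The change of MX1 was 0.78 (95% confidence interval -1.75 to 3.31) with 12 arrays and 0.02 (-2.21 to 2.24) with 11. IRF1 read 7.75, 8.34 and 8.09 with premir control, 8.03, 10.42 and 8.65 with premir miR-10b, 8.3, 8.13 and 8.12 with antimir control and 7.96, 8.31 and 7.56 with antimir-10b, and its change of 0.97 with 12 arrays (adjusted p 0.448) came to 0.28 (adjusted p 0.876) without the array that stood apart.

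OAS3, the largest of the oligoadenylate synthetases, had the smallest p of the set here. It read 9.65, 9.89 and 8.94 with premir control, 9.44, 7.46 and 7.82 with premir miR-10b, 9.21, 8.68 and 8.86 with antimir control and 9.72, 9.6 and 8.69 with antimir-10b. Replicate 1 with premir miR-10b lay within the premir control arrays, and replicates 2 and 3 lay under all of them. The change was -1.25 (95% confidence interval -2.31 to -0.19, unadjusted p 0.0251, adjusted p 0.448) with 12 arrays and -0.86 (-1.75 to 0.03, adjusted p 0.657) with 11. OAS3 was called only when limma weighted the arrays by quality (-1.38, adjusted p 0.0167) or when the 11-array fit also left out premir miR-10b replicate 1 (-1.67, adjusted p 0.0407), which leaves 1 array in that group. IFI44L was the 1 member with all premir miR-10b arrays under the controls, against 5.54% of features with 12 arrays and 9.98% with 11, but it was not detected on any of them.

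The difference between the effects of premir miR-10b and antimir-10b had a median of -0.02 with 12 arrays and -0.27 with 11, with 19 and 7 of 39 members positive, against 55% and 50.8% of features. It called 0 members, against 0% of features with 12 arrays and 0.104% higher and 0.259% lower with 11. OAS3 had the smallest p, with -1.67 (95% confidence interval -3.17 to -0.17, adjusted p 0.734) with 12 arrays and -1.28 (-2.48 to -0.09, adjusted p 0.72) with 11. The next by p were IFIT5 (-0.92, adjusted p 0.734) with 12 arrays and HERC6 (-0.54, adjusted p 0.802) with 11. HERC6 read 5.51, 5.99 and 5.31 with premir control, 5.55, 5.19 and 5.19 with premir miR-10b, 5.56, 5.22 and 5.29 with antimir control and 5.72, 5.84 and 5.41 with antimir-10b, and the premir miR-10b arrays overlapped the premir control arrays. It was detected on only 1 premir miR-10b and 1 antimir control array, so its value rests in part on background signal.

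No member passed the test between the control oligos. The change from premir control to antimir control was positive in 8 of 39 members, against 52% of features, and its median was -0.14. Limma called 0 members with 12 or 11 arrays, against 0.023% of features higher and 0% lower with 12, and 0.173% and 0.0345% with 11, and 0 members had an unadjusted p under 0.05. IFI44, an interferon-induced cytoplasmic protein, read 5.82, 5.81 and 5.3 with premir control, 6.21, 5.37 and 5.64 with premir miR-10b, 5.42, 5.31 and 5.27 with antimir control and 5.63, 5.49 and 5.48 with antimir-10b. It gave -0.31 (adjusted p 1 with 12 arrays and 0.544 with 11), and it was not detected on replicate 3 of either control group. Without premir control replicate 2 the median was 0.07 and without antimir control replicate 1 it was -0.41, so its sign depended on single arrays. Antimir control held 2 low arrays, with means of the 39 genes of 7.59 and 7.64, and premir control held 1, at 7.52. The part of these arrays in the median was not tested. This comparison shares the premir control arrays with the premir miR-10b comparison and the antimir control arrays with the antimir-10b comparison.

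**Figure D5:**
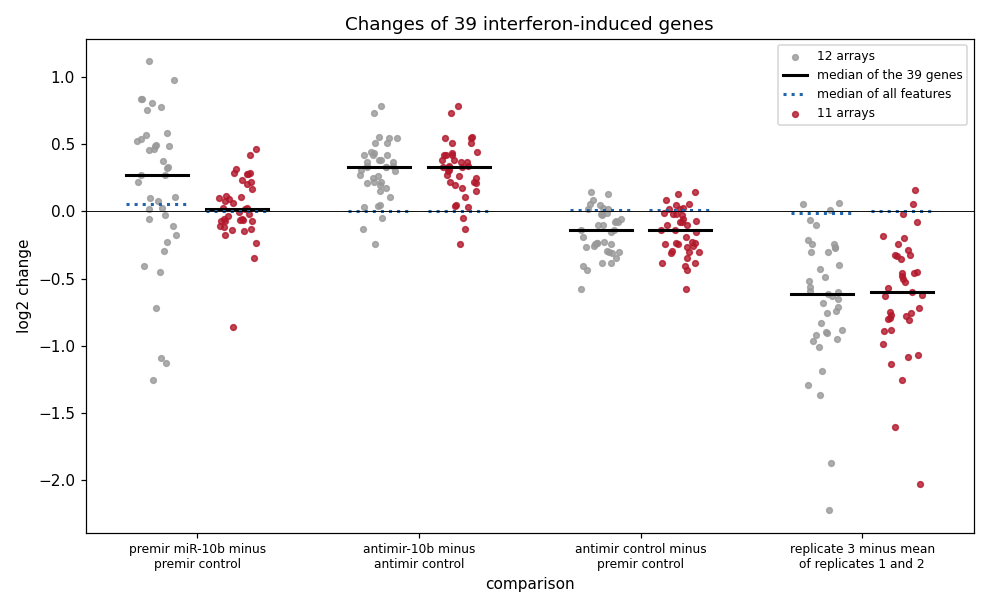
Log2 changes of the 39 genes in 4 comparisons, with 1 point per gene, 12 arrays in grey and 11 in red, the median of the 39 genes as a black bar and the median of all features as a dotted blue bar. The black bars lie at -0.62 and -0.60 for replicate 3, at 0.33 for antimir-10b and at 0.27 and 0.02 for premir miR-10b.

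Ligands of the pathway were detected on few arrays. IFNA1, IFNA2, IFNB1, IFNG and IFNK were detected on 0 arrays. IFNE, a type I interferon, was detected on 6 arrays and ran from 5 to 5.69. IFNL1, a type III interferon that acts on epithelial cells, was detected on 4 arrays. It read 7.08 and 7.68 on premir miR-10b replicates 1 and 2 and 5.99 on antimir-10b replicate 2, and 4.81 to 5.38 on the other arrays. IFNL2, its close relative, was detected on 3 arrays and read 6.54 on premir miR-10b replicate 1. IFNL3, detected on 2 arrays, is a near-identical copy of IFNL2, so a probe may bind transcripts of both and the IFNL2 values are uncertain. On premir miR-10b replicate 2, where IFNL1 was highest, IFNL2 read 5.01. After premir miR-10b the change of IFNL1 was 1.51 with 12 arrays (unadjusted p 0.0155, adjusted p 0.448) and 0.98 with 11 (adjusted p 0.529). That of IFNL2 was 0.49 with 12 arrays (adjusted p 0.46) and 0.74 with 11 (adjusted p 0.572). Neither was called, and the array that stood apart moved them in opposite directions. On the 5 arrays with low interferon-induced genes IFNL1 read 4.81 to 5.22 and IFNL2 4.8 to 5.16, near the detection limit. Where those genes were high, IFNL1 was also as low as 5.07, on antimir control replicate 1. In the replicate 3 contrast 1 of 3 measured ligands was positive and 0 were called, with a median of -0.43 with 11 arrays and -0.31 with 12. The part of the ligands in the pattern was not tested.

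Upstream genes had values on both sides of 0 in the replicate 3 contrast. With 11 arrays 5 of 10 receptors and kinases, 5 of 11 sensing genes and 4 of 8 inhibitors were positive and 0 were called, with medians of 0.01, -0.01 and 0.03, and with 12 arrays the medians were 0.07, 0.02 and 0.07. IFNAR1, a chain of the type I interferon receptor, was at 0.28 with 11 arrays (adjusted p 0.969) and 0.09 with 12. ADAR, an RNA editing enzyme with an interferon-induced form, was at -0.27 with 11 arrays (adjusted p 0.961) and -0.36 with 12. Of 35 further interferon-induced genes 4 were positive with 11 arrays (median -0.23) and 7 with 12 (median -0.13), and 0 were called. The lowest p among them with 11 arrays was that of PARP12, at -0.58 (adjusted p 0.669), followed by IFITM2, a relative of IFITM3, at -0.48 (adjusted p 0.673). After antimir-10b, 32 of these 35 were positive with a median of 0.11 and 0 called.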

How the data were processed

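Per the labels, RNA of 12 PANC-1 samples was taken up in Trizol and given a biotin label (TotalPrep, Illumina) for 1-colour BeadChips. The deposited non-normalized table gives an intensity on a linear scale for each of 47231 probes on each array, and was deposited as not normalized between arrays. It also gives a detection p-value per probe and array, as deposited by the authors, in which a low value means signal above background. The deposited scaled intensities are the same values times 1 constant per array (0.927 to 1.12) and served as an alternative. No source used here names the image software, slides or scan dates, so no such batch was fitted.

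In R 4.3.3 with limma 3.58.1, background was estimated from the detection p-values, an offset of 16 was added, and arrays were quantile normalized and put on a log2 scale. Probes detected (p under 0.05) on at least 3 arrays were kept (21195). The brightest probe stood for each symbol of the supplied annotation, and probes without 1 symbol were kept singly, giving 17369 features. Of all probes 30113 carry 1 symbol, 8 several and 17110 none. A model with 4 group means (lmFit, eBayes, two-sided, Benjamini-Hochberg over all features, called at an adjusted p under 0.05) gave the oligo comparisons, and a model with group and replicate number gave the replicate 3 contrast and the F test. The fit was repeated without premir miR-10b replicate 2, keeping the normalization of the 12 arrays. Scripts were tested on simulated data. Where a gene was detected on no array of a group, folds were bounded at the lowest detected signal of each array. Intervals cover the spread between 3 replicates a group, and the number of arrays limits precision. No 2 arrays held identical values.

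The members, the pathway and marker lists and the replicate 3 contrast were chosen with earlier results of these data known. Values of every array are given for members called with 12 or 11 arrays (0), the 10 with the largest within-group SD and the 2 with the smallest p in each comparison with 12 arrays. Members named for lying beyond the other group on every array, the 13 called with 10 arrays, HERC6 and the promoters shown were picked after their values were seen. Alternatives were median centring, no background correction, the scaled values, no filter, detection p under 0.01 on all arrays, every probe alone, array weights, the replicate number as a block, the compared arrays alone, and each array left out in turn. Promoter windows were matched by symbol to RefSeq on GRCh38.p14, and their start was placed at the commonest distance from a plus-strand window's first base to its gene's start (12629 of 17787 windows).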

Additional observations from a re-analysis of the deposited data

How the results depend on the processing

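With 12 arrays, the count of members called was 0 in each comparison and stayed 0 under each alternative that gave a value except array weights, where premir miR-10b against premir control called 1 (OAS3) and the difference of effects called 2 (OAS3 and IFIT5) with a median of -0.72. Array weights also turned the premir miR-10b median from 0.27 to -0.10 and moved the antimir-10b median from 0.33 to 0.63. With 11 arrays, leaving out 1 more array in turn gave 0 to 1 calls for premir miR-10b and for the difference of effects (1, OAS3, without premir miR-10b replicate 1). It gave 0 to 13 calls for the replicate 3 contrast and 0 to 5 for the F test, the 13 and 5 without antimir control replicate 2. The cause of these moves was not tested. The median member change with 1 array left out ran from 0.02 to 0.48 for premir miR-10b (-0.24 to 0.31 when 1 of the 11 arrays was left out), 0.15 to 0.60 for antimir-10b, -0.41 to 0.07 for the control oligos, -0.27 to 0.30 for the difference of effects and -0.71 to -0.51 for replicate 3 (12 arrays). Of 3028 values of the 16 genes given in full under all alternatives, 2836 kept their direction and stayed uncalled, 178 changed sign while uncalled, 14 became called and 0 reversed a call.

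With the replicate number as a block, the count was 0 in every oligo comparison. With 12 arrays the design is balanced, so the block cannot move the medians (0.27, 0.33, -0.14 and -0.02). With 11 it moved that of the difference of effects from -0.27 to -0.16 and that of premir miR-10b from 0.02 to 0.09. The numbers were not taken to pair the arrays. Of 18 pairs of same-numbered arrays 6 had deviations that correlated above 0.1 (range -0.27 to 0.36), and 5 of 12 arrays correlated best with their own number.

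Detection limits the dim genes. Requiring detection p under 0.01 on all arrays left 23 of the 39 genes and 8759 features, and dropping the filter gave 37164 features. With the scaled values the median of all features moved to -0.10 for premir miR-10b and -0.14 for the difference of effects with 12 arrays, and with the strict filter to 0.15 and 0.14, so the member medians there are to be read against those shifts.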
